A study of Mus musculus with 14 samples.

Results

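The cytosolic ribosomal protein genes were taken as every symbol of the deposited count matrix that begins with Rpl or Rps and a number, together with Rpsa, Rplp0, Rplp1 and Rplp2. Symbols of the S6 kinase family (Rps6k) and pseudogene symbols holding -ps were left out. The rule found 91 of the 23441 genes of the matrix, 54 with large subunit symbols and 37 with small subunit symbols. Annotation placed 85 of them among protein-coding genes and 6 among processed pseudogenes (Rpl32l, Rpl6l, Rpl37rt, Rps3a2, Rps3a3 and Rps4l), and 135 symbols holding -ps were set aside. Rps19bp1, which the rule takes in, belongs to a binding partner of Rps19 rather than to a ribosomal protein. The rule reads symbols alone and uses no expression value.

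The ribosome reads mRNA on its small subunit and joins amino acids on its large subunit. Each subunit is a folded ribosomal RNA with its own set of proteins, nearly all of which are present in a single copy, so their genes are usually expressed in step. Their mRNAs typically start with a C followed by a run of pyrimidines, the 5′ terminal oligopyrimidine or TOP tract, through which the kinase mTORC1 and the protein Larp1 adjust their translation when nutrients change. Dividing haematopoietic precursors are rich in ribosomes. The counts described here are mRNA levels and say nothing of translation.

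RNA came from bone marrow plugs of the distal tibia of male mice, 24 weeks old and of a mixed C57BL6/SJL background, and each of the 14 libraries was pooled from 2 mice. All mice carried the bone marrow adipocyte Cre system: Cre is written into the 3′ UTR of Adipoq and is switched on by the recombinase FLPo, which is expressed from the Osterix (Sp7) locus, so that BMAd-Pnpla2+/+ controls were Cre-positive too. In BMAd-Pnpla2-/- mice both copies of Pnpla2, which encodes adipose triglyceride lipase, are cut in bone marrow adipocytes, and per the study in a few stromal cells as well, and the cassette brings low Cre expression and low circulating adiponectin. BMAd-Pnpla2+/+ mice gave 4 libraries fed ad libitum (AL) and 4 under caloric restriction (CR), and BMAd-Pnpla2-/- mice gave 3 of each, where CR was 30% less food for 6 weeks, given once a day before dark.

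Each library held 18898324 to 21665553 gene reads counted without strand. The 3 BMAd-Pnpla2-/- CR libraries differed in kind from the other 11: reads on the first strand made up 50.1% to 50.5% of strand-assigned gene reads in them and 4.3% to 4.6% elsewhere. Library kind and group therefore cannot be told apart in any comparison with BMAd-Pnpla2-/- CR, and unstranded counts of all 14 libraries were used throughout. The targeted gene Pnpla2 stood at 301, 174, 199 and 190 CPM (counts scaled to a common library size by TMM) in BMAd-Pnpla2+/+ AL, 804, 991, 1015 and 502 with CR, 135, 170 and 131 in BMAd-Pnpla2-/- AL, and 177, 219 and 267 when these mice were restricted, so each BMAd-Pnpla2-/- library lay below all BMAd-Pnpla2+/+ libraries of its diet. The labels call the tissue bone marrow adipose tissue. The adipocyte hormone gene Adipoq ranged from 7.51 to 224 CPM, whereas the leukocyte gene Ptprc, which encodes CD45, ranged from 386 to 560 CPM in the same libraries. In such bulk samples, fewer cells of a type and less RNA per cell cannot be told apart.

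The start of each gene was set beside its response because TOP mRNAs are defined by their first bases. Sequences running from 250 bases before to 50 bases after the annotated start were found in RefSeq (GRCm38.p6) for 67 of the 91 members. A C followed by at least 5 pyrimidines (C or T) began within 30 bases of the start in 52 of these 67 genes (77.6%), against 46.2% of 27025 genes of all kinds. With a C and at least 4 pyrimidines exactly at the start, the counts were 15 of 67 (22.4%) against 3.01%. The 30 bases below are shown for members whose values are given later, either because they fell with CR (Rpl7a, Rpl28, Rpl27a, Rpl13a, Rpl31 and Rps26), because their fitted changes did not pass the test (Rpl38, Rps27 and Rps6, whose protein is the target of the S6 kinases), or because the gene rose (Rpl39l). Capitals mark the C nearest to the annotated start that has at least 5 pyrimidines directly after it, together with that run. The run began at the start (0) in Rpl28, Rpl38, Rps27 and Rps6, at -1 in Rpl7a and Rpl27a and at -3 in Rpl31. It began at 2 in Rpl13a, at 4 in Rps26 and at -6 in Rpl39l, where negative values lie before the start. Each sequence is given 5′ to 3′ on the strand of its gene.
Rpl7a, chr2:26910798-26910827, plus strand: tcttctttCTTTCTCCagcagccgagcaag
Rpl28, chr7:4792957-4792986, plus strand: tcgtgtctCTCTTTCCgtctccggccgcca
Rpl27a, chr7:109519186-109519215, plus strand: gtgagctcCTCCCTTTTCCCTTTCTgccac
Rpl13a, chr7:45128722-45128751, minus strand: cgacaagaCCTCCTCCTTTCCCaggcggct
Rpl31, chr1:39367840-39367869, plus strand: ctcctcgcCTCCCCgtgacccggaagttgt
Rps26, chr10:128626481-128626510, minus strand: cgccggatCCTCTTTCgagtcttggctcca
Rpl38, chr11:114668572-114668601, plus strand: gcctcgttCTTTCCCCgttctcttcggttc
Rps27, chr3:90213627-90213656, minus strand: ctttcgctCCTTTCCggcggtgacgacctc
Rps6, chr4:86857346-86857375, minus strand: agtcgggcCTCTTTTTCgtgacgcctccca
Rpl39l, chr16:10170214-10170243, plus strand: tcccaggcCTTTCCggatttccggtggtcg

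Only members with such a tract are shown. The other 15 matched genes, among them Rplp0, Rpl41, Rps28 and Rpl3l, had none under this definition. In the window of 300 bases, CCGGAAG, the core bound by ETS factors, was found on either strand of 26 members (38.8%, against 9.93% of all genes), and AAGATGGC, the core of the YY1 motif, in 6 (8.96%, against 3.19%). The E-box CACGTG, bound by Myc among others, was in 6 (8.96%, against 8.09%), and the TATA box TATAAA in 8 (11.9%, against 15.7%).

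Most members were highly expressed. Mean counts per library ran from 11.5 for Rpl24 to 34301 for the member with most reads, and 74 members averaged at least 1000 counts, 17 fewer and 10 under 100. Rpsa, a small subunit protein that also serves as a laminin receptor, took 5.62% of the reads of all members, Rplp0 took 5.6%, Rpl4 3.43%, Rplp1 3.06% and Rps2 2.98%. Per kilobase of merged exons, the highest levels were 1880 CPM for Rplp1, 1038 CPM for Rplp0, 833 CPM for Rps15, 557 CPM for Rpl8 and 545 CPM for Rpsa. The SD of log2 CPM within groups had a median of 0.180 over members and 0.267 over all genes tested. Some members were counted on few reads: Rpl24 averaged 11.5, Rpl36al 13.7, Rps10 79 and Rpl13a 240 counts. Reads that could come from more than 1 place in the genome were not counted, 50 members have at least 1 pseudogene symbol holding -ps, and the exons of 39 members overlap another gene on either strand, so the levels of single members are uncertain.

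The question of the first comparison was what CR did to these genes. As a share of all gene reads, members together made up 3.31%, 3.35%, 3.47% and 3.31% in BMAd-Pnpla2+/+ AL libraries (3.36% ± 0.0772, SD, n = 4) and 3.19%, 2.81%, 2.53% and 3.08% in BMAd-Pnpla2+/+ CR libraries (2.90% ± 0.295, SD, n = 4). All 4 restricted libraries lay below all 4 AL libraries, and replicates 2 and 3 lay lowest. In BMAd-Pnpla2-/- mice the shares were 3.33%, 3.0% and 3.11% AL (3.14% ± 0.169, SD, n = 3) and 2.84%, 2.95% and 2.58% under CR (2.79% ± 0.192, SD, n = 3), again without overlap. Large subunit genes made up 1.94% ± 0.0532, 1.67% ± 0.172, 1.80% ± 0.0913 and 1.58% ± 0.108 in BMAd-Pnpla2+/+ AL, BMAd-Pnpla2+/+ CR, BMAd-Pnpla2-/- AL and BMAd-Pnpla2-/- CR, and small subunit genes made up 1.42% ± 0.0263, 1.23% ± 0.125, 1.34% ± 0.0781 and 1.21% ± 0.0846 in the same order. The ratio of large to small subunit reads was 1.36, 1.35, 1.34 and 1.30. These sums are descriptions without a test.

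**Figure D1:**
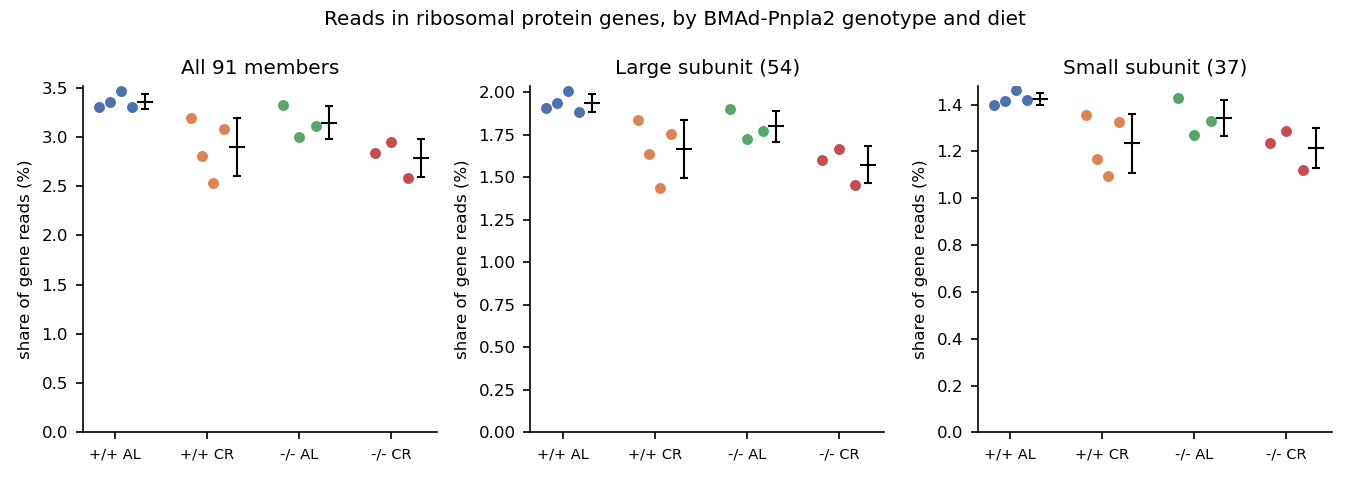
Share of gene reads, in percent, held by all members (left), large subunit members (middle) and small subunit members (right) in each library, by group. Points are libraries, with the group mean and SD: the 4 BMAd-Pnpla2+/+ AL libraries held 3.31% to 3.47% for all members and the 4 BMAd-Pnpla2+/+ CR libraries 2.53% to 3.19%.

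In BMAd-Pnpla2+/+ mice under CR, 26 of the 91 members fell and 2 rose. With edgeR's quasi-likelihood test and Benjamini-Hochberg adjustment over all 17671 genes tested (adjusted p under 0.05), 15 of 54 large subunit members fell and 1 rose, and 11 of 37 small subunit members fell and 1 rose. All 91 members passed the filter on low counts. Those that fell are 28.6% of the family, where 10.9% of all genes tested fell, and those that rose stand against 15.1% of all genes. The fitted log2 fold change, passing or not, was below 0 in 84 of 91 members. Its median was -0.24 for the large subunit (-15.3%) and -0.27 for the small subunit (-17.2%), beside 0.00 for all genes tested. Past the stricter criterion of the study, which adds an absolute log2 fold change over 1, 1 member fell (Rpl3l, against 1.94% of all genes) and 1 rose (Rpl39l, against 7.33%). Among the 74 members with at least 1000 counts, 22 fell, none rose in the edgeR test, and 72 had a fitted log2 fold change below 0.

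**Figure D2:**
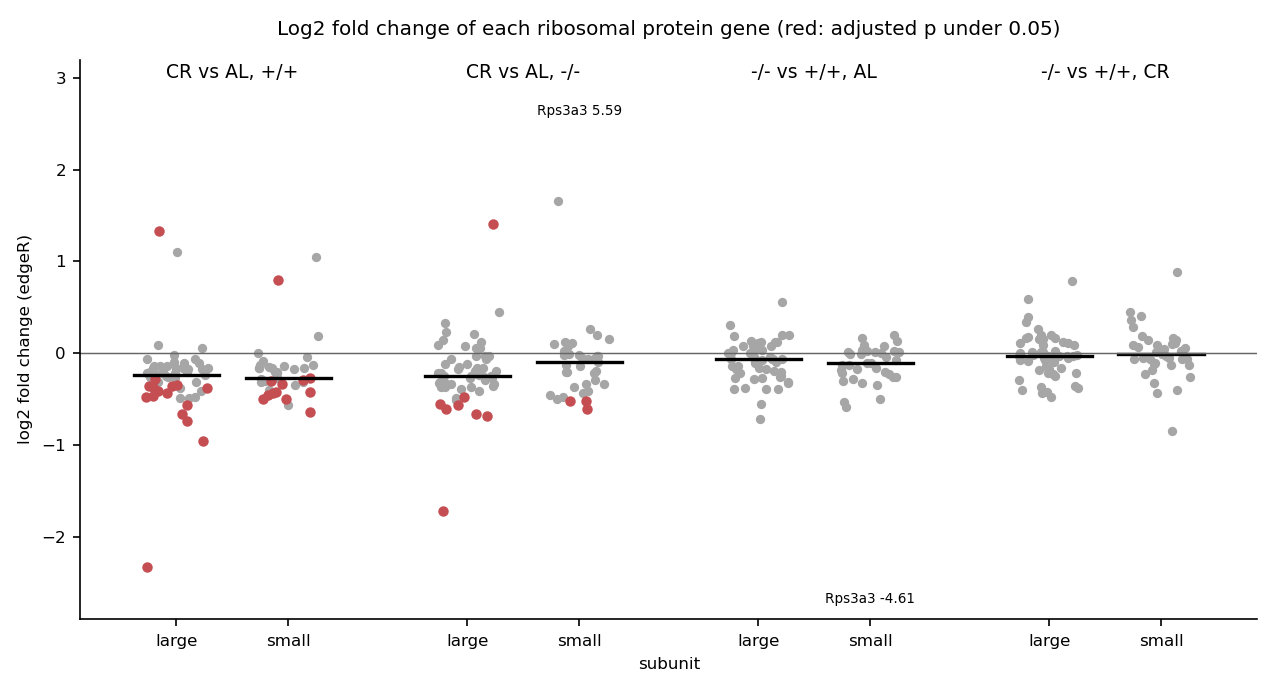
Log2 fold change of each member in 4 comparisons, large and small subunit side by side. Each point is a gene, red where the edgeR adjusted p was under 0.05, and the black line is the median of the subunit, which was -0.24 and -0.27 for CR in BMAd-Pnpla2+/+ and -0.25 and -0.10 for CR in BMAd-Pnpla2-/-. The values 5.59 and -4.61 of Rps3a3 lie outside the axis and are written as text.

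Counting members whose AL and CR libraries did not overlap, 13 large and 12 small subunit members lay lower in every restricted BMAd-Pnpla2+/+ library, against 10.4% of all genes, and 1 lay higher, against 12.4%. The fall was not even between libraries. Taking each member against its mean in BMAd-Pnpla2+/+ AL, the median over members was -0.06, -0.34, -0.48 and -0.10 on the log2 scale in the 4 BMAd-Pnpla2+/+ CR libraries, with 58, 86, 85 and 65 of 91 members below that mean. Without replicate 2 the calls were 9 and 3 for the large and small subunit, and without replicate 3 they were 7 and 3. The medians of the 4 AL libraries were -0.06, 0.05, 0.06 and -0.06.

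Replicates 2 and 3 also stood apart in neutrophil, proliferation and erythroid markers, where they were lowest. They were highest for adipocyte and for T and NK cell markers, where the gap to the next library was smaller. In the pro-B and pre-B cell and the stromal and osteoblast lists they did not lie together at either end. The summed level of 12 neutrophil genes was 25352, 14702, 15917 and 27265 CPM in BMAd-Pnpla2+/+ CR replicates 1 to 4 and 30000 to 38711 CPM in BMAd-Pnpla2+/+ AL. That of 10 proliferation genes was 2630, 1530, 1164 and 3413 CPM, against 3341 to 5145 CPM in AL, and that of 10 erythroid genes was 33873, 11415, 10586 and 51590 CPM, against 18453 to 34162 CPM. The 10 adipocyte genes summed to 4891, 5832, 6069 and 2426 CPM, against 932 to 2018 CPM, and 12 pro-B and pre-B cell genes to 585, 668, 578 and 638 CPM, against 370 to 1560 CPM. Stromal and osteoblast genes summed to 11023, 13467, 9993 and 6031 CPM, against 5429 to 6928 CPM. For T and NK cell genes the sums were 166, 204, 206 and 198 CPM, against 142 to 194 CPM. By the edgeR test, 8 of 12 neutrophil, 7 of 12 pro-B and pre-B, 6 of 10 proliferation and none of 10 erythroid genes fell, whereas 9 of 10 adipocyte and 4 of 10 stromal and osteoblast genes rose, and of 8 T and NK cell genes 4 rose and 1 fell. The pro-B and pre-B genes that fell were those of the precursor stage, such as Igll1 (log2 fold change -6.45) and Rag1 (-6.83), while others that mature B cells also express, among them Cd79a, Cd79b and Pax5, did not pass. Mitochondrial transcripts made up 1.25% ± 0.145 of gene reads in BMAd-Pnpla2+/+ AL and 1.80% ± 0.33 under CR (SD, n = 4 each). The part of these differences in the lower ribosomal protein mRNAs was not tested.

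In BMAd-Pnpla2+/+, 8 calls held under all 17 alternatives run, among them Rpl13a, Rpl23a, Rpl31, Rpl7a, Rps28, Rpl3l and Rpl39l, of which Rpl31 and Rps28 are named in this respect after their values were seen. Rpl13a (chr7:45125558-45128761, minus strand), a large subunit protein that also takes part in the GAIT complex silencing inflammatory mRNAs, stood at 16.1, 17.0, 17.1 and 14.1 CPM in AL and 9.10, 7.34, 6.94 and 9.76 CPM under CR. The groups did not overlap, and the log2 fold change was -0.96 ± 0.155 (SE, n = 4 and 4; edgeR adjusted p = 0.0021). Rpl13a is counted on an average of only 240 reads. Its exons overlap 3 other genes on the same strand, among them Gm45713, so these may be only part of its reads.

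Rpl23a and Rpl31 line the exit of the tunnel through which the growing peptide leaves the large subunit. Rpl23a (chr11:78180932-78183584, minus strand) stood at 167, 213, 183 and 168 CPM in AL and at 132, 144, 103 and 114 CPM under CR, without overlap (log2 fold change -0.57 ± 0.114, edgeR adjusted p = 0.0052). Rpl31 (chr1:39367842-39371911, plus strand) went from 267, 360, 329 and 226 CPM to 203, 210, 132 and 203 CPM, again without overlap, with replicate 3 lowest (log2 fold change -0.66 ± 0.162, edgeR adjusted p = 0.0126). Over the 8 exit tunnel genes, 4 fell (Rpl19 and Rpl35 beside these) and none rose by the edgeR test, with a median of -0.34, where 10.9% of all genes fell and 15.1% rose, and Rpl39 had a log2 fold change of 0.05.

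Rpl7a, a large subunit protein, stood at 777, 912, 845 and 789 CPM in AL and at 664, 643, 446 and 626 CPM under CR (chr2:26910764-26913318, plus strand). Every restricted library lay below every AL library, and the log2 fold change was -0.48 ± 0.128 (edgeR adjusted p = 0.0175). Of the small subunit, Rps28 (chr17:33819027-33824562, minus strand) stood at 258, 289, 293 and 254 CPM in AL and at 222, 199, 199 and 198 CPM under CR. The Rps28 libraries did not overlap, and the log2 fold change was -0.42 ± 0.0877 (edgeR adjusted p = 0.0062).

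Ribosomal protein genes mutated in Diamond-Blackfan anaemia, an inherited failure of red cell production, included 4 of 9 that fell and none that rose by the edgeR test, with a median of -0.22 and the same shares of all genes. Among those that fell were Rps10, Rps26 and Rps19. Rps26, which contacts mRNA at the exit channel of the small subunit, stood at 589, 661, 656 and 576 CPM in AL and 486, 388, 339 and 534 CPM under CR, without overlap (log2 fold change -0.51 ± 0.141, edgeR adjusted p = 0.0209). Rps10 fell by 0.64 ± 0.181 on the log2 scale (edgeR adjusted p = 0.0228) at an average of 79 counts, and Rps19 fell by 0.29 ± 0.089 (edgeR adjusted p = 0.0297). Exons of Rps10 overlap 1 other gene on the same strand and 1 on the other strand, so its level is uncertain. Rps24 had a log2 fold change of -0.05 (edgeR adjusted p = 0.789). The calls of Rps26, Rps10 and Rps19 were lost without CR replicate 2, and those of Rps26 and Rps19 also without CR replicate 3. Leaving out AL replicate 2 ended the calls of Rps26 and Rps10, AL replicate 3 that of Rps19 and AL replicate 4 that of Rps10.

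Of the P stalk, which recruits elongation factors to the large subunit, 1 of 4 genes passed the test, as a fall, where 10.9% of all genes fell. Rplp1 stood at 1061, 1177, 1173 and 1047 CPM in AL and at 934, 894, 798 and 837 CPM under CR, without overlap (log2 fold change -0.36 ± 0.11, edgeR adjusted p = 0.0291). The call was lost without CR replicate 2 or 3 and without AL replicate 2 or 3. Its partners Rplp2 (-0.21, edgeR adjusted p = 0.09), Rplp0 (-0.17, edgeR adjusted p = 0.316) and Rpl12 (-0.06, edgeR adjusted p = 0.666) did not pass the test. Rpl5 and Rpl11, which bind 5S rRNA and restrain the p53 ligase Mdm2 when ribosome assembly is disturbed, had log2 fold changes of -0.22 (edgeR adjusted p = 0.103) and -0.16 (edgeR adjusted p = 0.293).

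Several well-known members did not pass the test in BMAd-Pnpla2+/+ mice. Rps6 had a log2 fold change of -0.16 ± 0.101 (edgeR adjusted p = 0.237), Rpsa -0.16 ± 0.121 (edgeR adjusted p = 0.338), Rps14 -0.09 ± 0.116 (edgeR adjusted p = 0.6) and Rps27a, which is made as a fusion with ubiquitin, -0.21 ± 0.134 (edgeR adjusted p = 0.263). Rps27 stood at 355, 317, 363 and 421 CPM in AL and 384, 316, 399 and 357 CPM under CR, so the groups overlapped and their means were alike (364 ± 42.8 and 364 ± 36.2 CPM, SD, n = 4 each). Rpl38, whose loss in mice alters the axial skeleton, was tight in AL (128, 129, 137 and 129 CPM) and wide under CR, where replicates 1 and 4 were high (185 and 158 CPM) and replicates 2 and 3 low (112 and 100 CPM). Its log2 fold change was 0.09 ± 0.157 (edgeR adjusted p = 0.698). Rpl41, the smallest ribosomal protein, fell by 0.44 ± 0.145 (edgeR adjusted p = 0.0402), a call that held in 10 of 17 alternatives, and Rps19bp1 had a log2 fold change of -0.40 ± 0.149 (edgeR adjusted p = 0.0589).

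**Figure D3:**
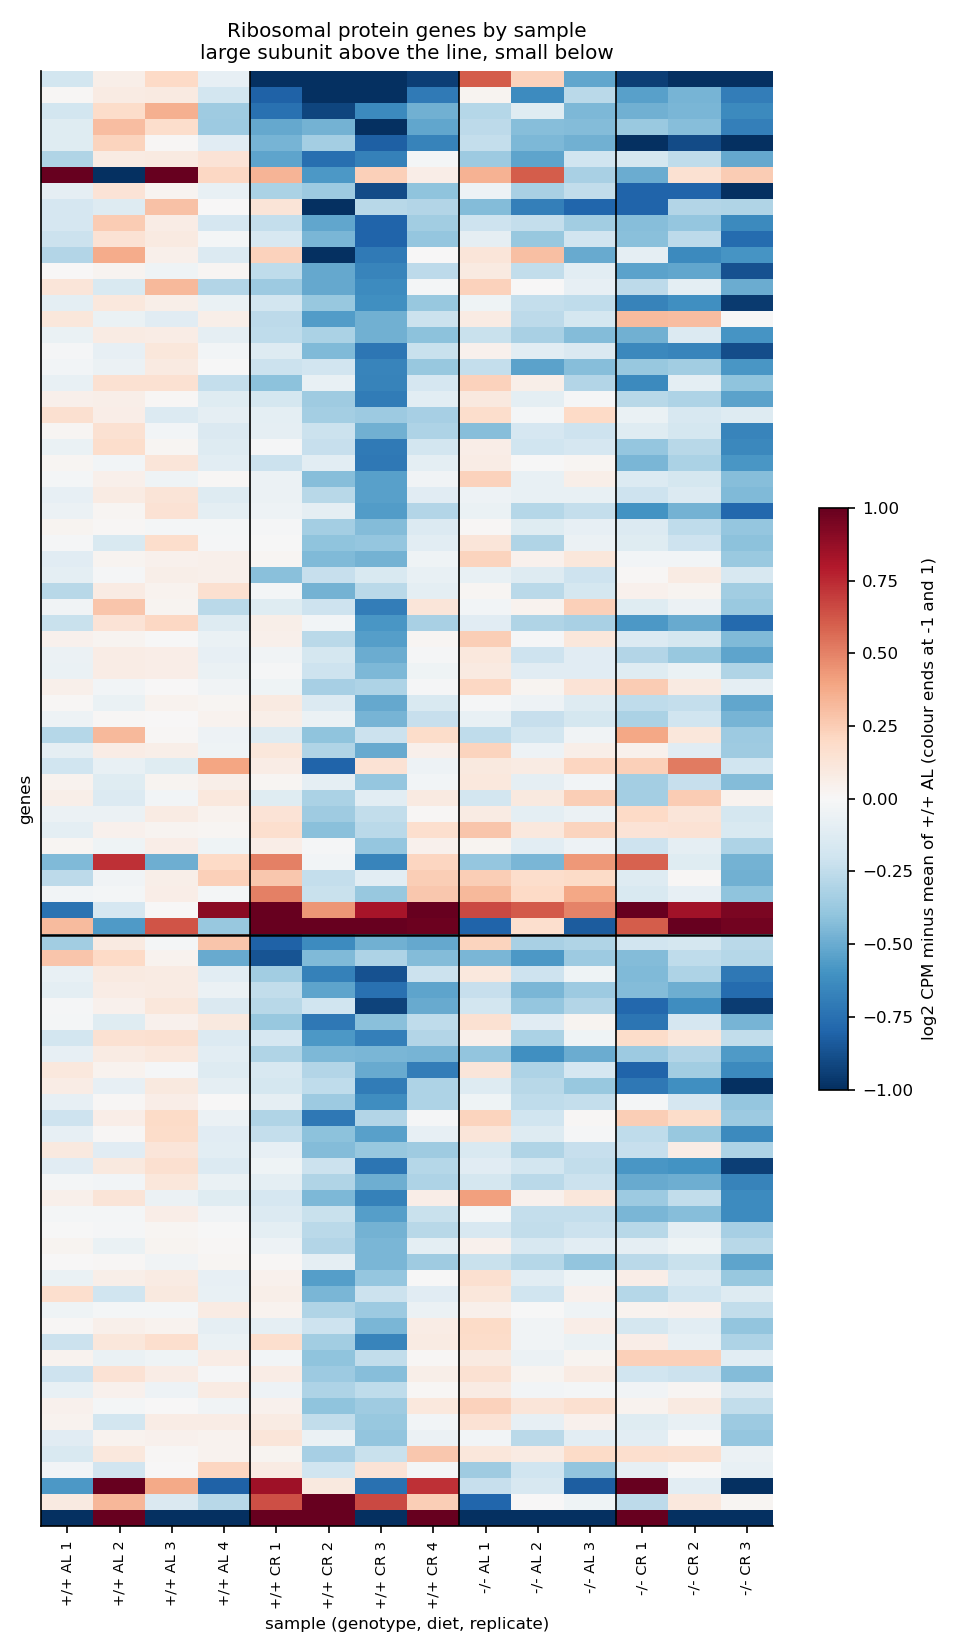
Log2 CPM of each member minus its mean in BMAd-Pnpla2+/+ AL, one row per gene and one column per library, with colours ending at -1 and 1. Rows are split by subunit and ordered by the log2 fold change with CR in BMAd-Pnpla2+/+. BMAd-Pnpla2+/+ CR replicates 2 and 3 have the lowest medians over members of that group, -0.34 and -0.48.

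The change with CR was also set against the bases at the start of each gene. In BMAd-Pnpla2+/+ mice the median log2 fold change with CR was -0.23 over the 52 genes with the tract, 16 of which fell, and -0.27 over the 15 without, 6 of which fell. In BMAd-Pnpla2-/- mice the medians were -0.20 and -0.24. For genes with and without CCGGAAG the medians were -0.29 (26 genes) and -0.22 (41 genes) in BMAd-Pnpla2+/+ and -0.26 and -0.16 in BMAd-Pnpla2-/-. The tract counted here began within 30 bases of the annotated start on either side, not only at the start, so the split is not one of TOP against other mRNAs. These are descriptions of few genes, with no test of the differences.

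In BMAd-Pnpla2-/- mice under CR, fewer members passed the test. By edgeR, 7 of 54 large subunit members fell and 1 rose, and 3 of 37 small subunit members fell and none rose. The 10 that fell are 11% of the family, against 5.57% of all genes tested, and the 1 that rose stands against 6.04%. Past the stricter criterion, Rpl3l fell (0.911% of all genes) and Rpl39l rose (2.62%). The median log2 fold change was -0.25 for the large and -0.10 for the small subunit, beside 0.05 for all genes, and 70 of 91 members (76.9%) had a value below 0. With libraries scaled by total counts alone, the medians were -0.17 and -0.03 beside 0.12 for all genes, and 38 of 54 large and 19 of 37 small subunit members were below 0. Members whose libraries did not overlap numbered 26 large and 13 small subunit genes lower, against 17.4% of all genes, and 2 and 2 higher, against 20.5%. With DESeq2 in place of edgeR, 13 large and 12 small subunit members passed, the latter including Rps3a3, which was high in 1 CR library. Without BMAd-Pnpla2-/- CR replicate 3 no member passed in edgeR, so the number of calls rests on single libraries and on the test. Without BMAd-Pnpla2-/- AL replicate 1, 1 large and 0 small subunit members passed.

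Of the markers in BMAd-Pnpla2-/- libraries, neutrophil genes summed to 32485 to 33711 CPM AL and 20042 to 31977 CPM under CR, and proliferation genes to 2922 to 4808 and 2137 to 3292 CPM. Adipocyte genes summed to 493 to 1038 and 1739 to 2748 CPM, pro-B and pre-B genes to 911 to 1143 and 273 to 616 CPM, and erythroid genes to 38309 to 49584 and 30370 to 52036 CPM. By edgeR, 7 of 12 pro-B and pre-B genes fell, 8 of 10 adipocyte and 1 of 10 stromal and osteoblast genes rose, and of 8 T and NK cell genes 2 rose and 1 fell, whereas none of the neutrophil, erythroid or proliferation genes passed. Mitochondrial transcripts made up 1.47% ± 0.129 of gene reads AL and 2.44% ± 0.725 under CR (SD, n = 3 each). Their part in the result was not tested.

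The call that held best was Rpl37, a large subunit protein, which stood at 206, 186 and 181 CPM in BMAd-Pnpla2-/- AL and at 128, 126 and 108 CPM under CR. The groups did not overlap (log2 fold change -0.66 ± 0.134, n = 3 and 3, edgeR adjusted p = 0.0117), and the call held in 13 of 14 alternatives. Rpl7a stood at 802, 661 and 699 CPM AL and 476, 475 and 394 CPM under CR (log2 fold change -0.68 ± 0.149, edgeR adjusted p = 0.0149), and Rpl23a at 154, 133 and 131 and at 90.8, 97.9 and 85.5 CPM (log2 fold change -0.61 ± 0.131, edgeR adjusted p = 0.0147). Neither pair of groups overlapped. Rpl28 and Rpl27a, named here after their values were seen, fell by 0.55 ± 0.134 (edgeR adjusted p = 0.022) and 0.56 ± 0.126 (edgeR adjusted p = 0.016) on the log2 scale. Of the small subunit, Rps2, which lines the mRNA entry channel, went from 1318, 1020 and 1073 CPM to 768, 832 and 640 CPM without overlap (log2 fold change -0.61 ± 0.177, edgeR adjusted p = 0.0416). Rps20 and Rps18 fell by 0.53 ± 0.146 (edgeR adjusted p = 0.035) and 0.52 ± 0.158 (edgeR adjusted p = 0.0475). None of the 11 calls in BMAd-Pnpla2-/- held without CR replicate 3, and Rpl37 alone held without AL replicate 1.

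Calls were partly shared between the genotypes, whose CR comparisons share no library. The members that fell in both numbered 6 (Rpl23a, Rpl27a, Rpl28, Rpl37, Rpl3l and Rpl7a), which is 23.1% of the 26 that fell in BMAd-Pnpla2+/+ and 60% of the 10 that fell in BMAd-Pnpla2-/-, and Rpl39l rose in both. The log2 fold change was below 0 in both for 68 of 91 members. Across the 91 members the 2 fold changes had a Pearson r of 0.616 and a Spearman rho of 0.363, and across the 74 with at least 1000 counts r was 0.274 and rho 0.304. Members are not independent replicates, and the libraries of one comparison differ in kind. The shared calls and shared signs were not counted over all genes tested, so neither is shown to be particular to this family.

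**Figure D4:**
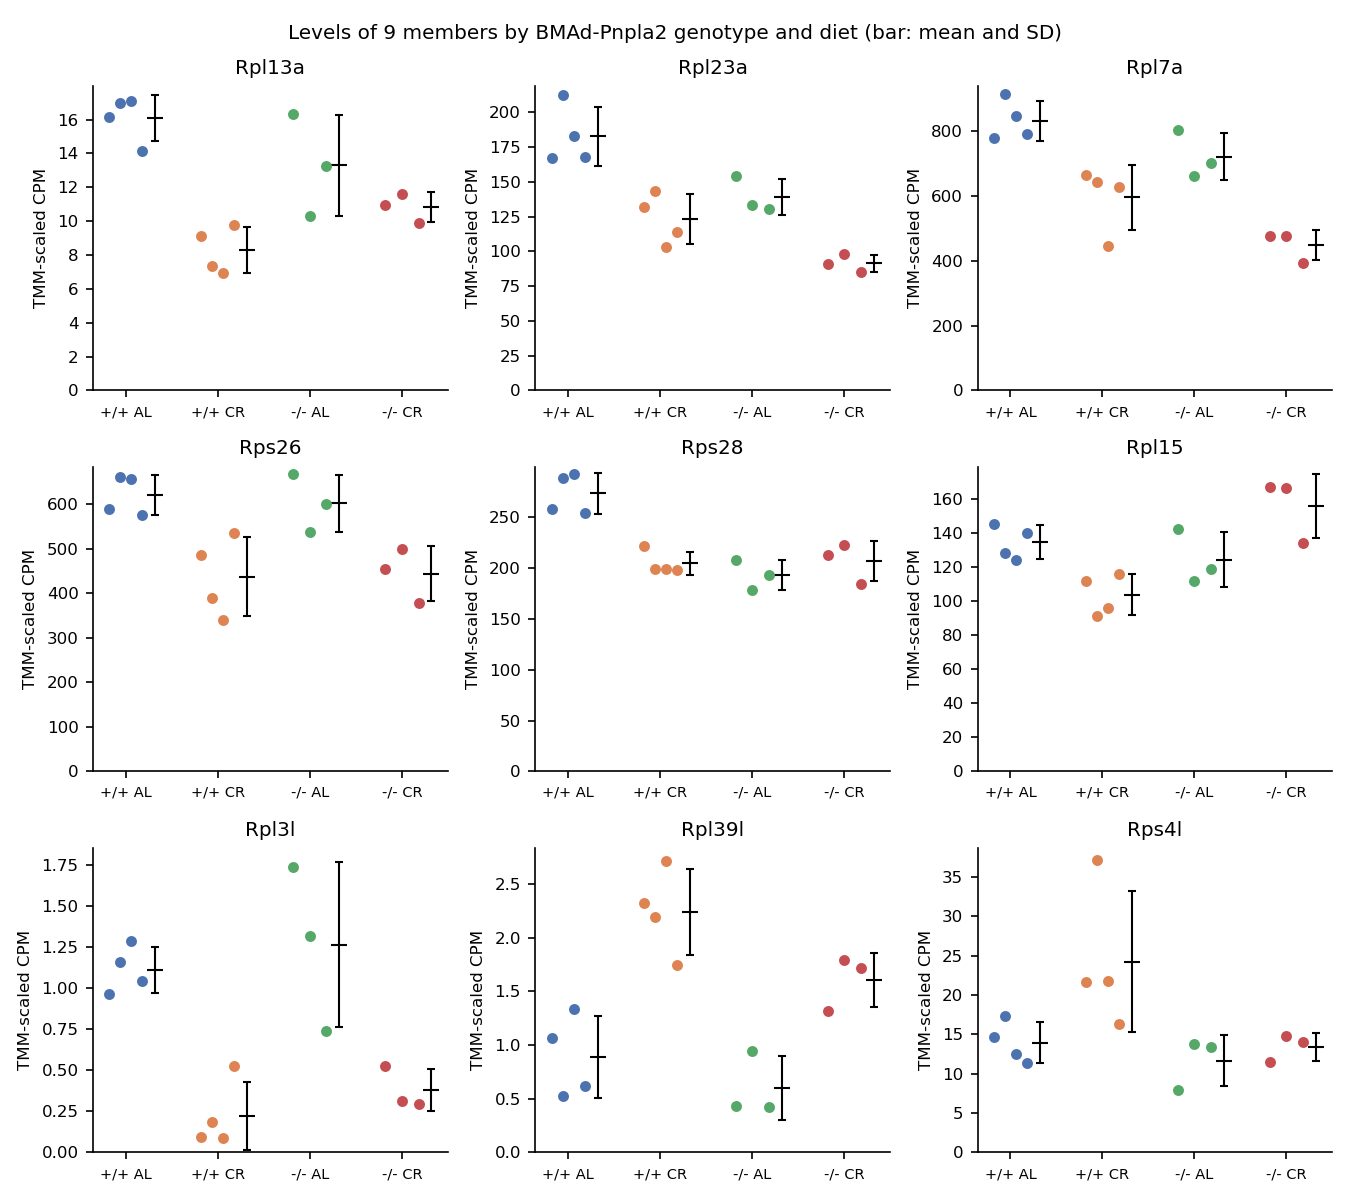
TMM-scaled CPM of 9 members in each library, by group, on axes of their own. Points are libraries with the group mean and SD. Rpl13a, Rpl23a, Rpl7a, Rps26 and Rps28 lie lower under CR in BMAd-Pnpla2+/+, the mean of Rpl15 is highest in BMAd-Pnpla2-/- CR (156 ± 18.8 CPM), and Rpl39l lies higher under CR in both genotypes.

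Members carried few detectable differences between genotypes. Fed AL, 0 of 91 members and 0% of the 17671 genes tested passed in the edgeR test, higher or lower, and 9 members (9.89%) and 700 genes (3.96%) had an unadjusted p under 0.05. DESeq2 called 1 member, Rps28, and 18 genes in all. The median log2 fold change, with BMAd-Pnpla2+/+ as the base, was -0.07 for the large and -0.11 for the small subunit, and 61 of 91 members were below 0. Libraries did not overlap for 7 large and 10 small subunit members that lay lower in BMAd-Pnpla2-/-, against 3.14% of all genes, and for 2 and 1 that lay higher, against 2.32%. Rps28 was among the former: its BMAd-Pnpla2-/- AL libraries stood at 208, 178 and 194 CPM, below the 254 to 293 CPM of BMAd-Pnpla2+/+ AL and close to the 198 to 222 CPM of BMAd-Pnpla2+/+ CR. The log2 fold change was -0.50 ± 0.0956, with an edgeR adjusted p of 0.311, the lowest of any member.

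Under CR, no member passed in edgeR between the genotypes (0.00566% of all genes, 1 gene, in each direction), while 16 members (17.6%) and 4095 genes (23.2%) had an unadjusted p under 0.05. DESeq2 called 9 members, Rpl7a, Rps20, Rps4l, Rps19, Rpl27a, Rpl13, Rpl23a, Rpl15 and Rpl37, and 1608 genes. The median log2 fold change was -0.03 for the large and -0.01 for the small subunit, and -0.01 for all genes. Non-overlapping members were 2 large and 2 small lower, against 8.06% of all genes, and 2 and 1 higher, against 8.65%. Rpl15, a large subunit protein, had the lowest adjusted p of any member. It stood at 112, 91.3, 96.1 and 116 CPM in BMAd-Pnpla2+/+ CR and at 167, 167 and 134 CPM in BMAd-Pnpla2-/- CR, so that each of the latter lay above all of the former (log2 fold change 0.59 ± 0.118, edgeR adjusted p = 0.0546). These 3 libraries are those of another kind.

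Whether the response to CR differed between the genotypes was tested as an interaction. In edgeR 0 members and 0% of all genes passed, and 8 members (8.79%) and 1836 genes (10.4%) had an unadjusted p under 0.05. DESeq2 called 1 member, Rpl15, among 58 genes. Rpl15 fell with CR in BMAd-Pnpla2+/+ mice (log2 fold change -0.37 ± 0.11, edgeR adjusted p = 0.0255, a call that held in 13 of 17 alternatives) and had a log2 fold change of 0.32 ± 0.127 in BMAd-Pnpla2-/- mice (edgeR adjusted p = 0.107), a difference of 0.70 ± 0.168 (edgeR adjusted p = 0.341). For Rps28 the difference was 0.52 ± 0.134, with the same adjusted p of 0.341. The different numbers of calls in the genotypes are thus not shown to be different responses.

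Paralogues of core proteins were set beside their partners. Rpl3l replaces Rpl3 in skeletal and heart muscle ribosomes. Its level (chr17:24727820-24736143, plus strand) was 0.966, 1.16, 1.29 and 1.04 CPM in BMAd-Pnpla2+/+ AL and 0.0948, 0.182, 0.0889 and 0.528 CPM under CR, without overlap (log2 fold change -2.33 ± 0.472, edgeR adjusted p = 0.0054). In BMAd-Pnpla2-/- it went from 1.74, 1.32 and 0.740 CPM to 0.527, 0.316 and 0.294 CPM (log2 fold change -1.73 ± 0.509, edgeR adjusted p = 0.0433), a call that was lost without any 1 of the 6 libraries. Rpl3l counts averaged 14.3 per library, and relative to Rpl3 they made up 0.158% ± 0.0221, 0.0386% ± 0.0366, 0.221% ± 0.106 and 0.0659% ± 0.0152 in BMAd-Pnpla2+/+ AL, BMAd-Pnpla2+/+ CR, BMAd-Pnpla2-/- AL and BMAd-Pnpla2-/- CR. Reads of Acta1, the actin of skeletal muscle, were 9, 94, 6 and 4 in BMAd-Pnpla2+/+ AL, 17, 15, 18 and 61 under CR, 34, 34 and 47 in BMAd-Pnpla2-/- AL and 20, 236 and 839 under CR. A relation of these reads to Rpl3l was not tested.

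Rpl39l, the paralogue of Rpl39 known from the testis, moved the other way (chr16:10170226-10174911, plus strand). It stood at 1.06, 0.528, 1.34 and 0.616 CPM in BMAd-Pnpla2+/+ AL and at 2.32, 2.19, 2.71 and 1.74 CPM under CR, where every library lay above AL (log2 fold change 1.33 ± 0.322, edgeR adjusted p = 0.0117). In BMAd-Pnpla2-/- mice it stood at 0.435, 0.948 and 0.423 CPM AL and at 1.32, 1.79 and 1.72 CPM under CR, again without overlap (log2 fold change 1.41 ± 0.396, edgeR adjusted p = 0.0369), a call that held in 9 of 14 alternatives. Relative to Rpl39 its counts were 0.978% ± 0.466 and 2.40% ± 0.703 in BMAd-Pnpla2+/+ AL and CR, and 0.568% ± 0.294 and 2.02% ± 0.519 for the same diets in BMAd-Pnpla2-/-. Rpl39 itself had log2 fold changes of 0.05 (edgeR adjusted p = 0.805) and -0.39 (edgeR adjusted p = 0.126). Rpl39l averaged 27.9 counts.

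Rps4l, annotated as a transcribed processed pseudogene (chr6:148354656-148355598, plus strand), stood at 14.7, 17.3, 12.5 and 11.3 CPM in BMAd-Pnpla2+/+ AL and 21.6, 37.2, 21.8 and 16.4 CPM under CR, with replicate 4 inside the AL range (log2 fold change 0.80 ± 0.242, edgeR adjusted p = 0.0295). The call held in 12 of 17 alternatives and was lost without CR replicate 2 or 3, without AL replicate 3 or 4 and in a fit of the 2 groups alone. In BMAd-Pnpla2-/- it stood at 7.88, 13.8 and 13.3 CPM AL and 11.4, 14.8 and 14 CPM under CR (log2 fold change 0.20 ± 0.283, edgeR adjusted p = 0.684). Its partner Rps4x had log2 fold changes of -0.15 and -0.06, with edgeR adjusted p of 0.252 and 0.745. Rpl7l1 fell by 0.29 ± 0.092 in BMAd-Pnpla2+/+ (edgeR adjusted p = 0.0363), at 10.4% and 10.3% of Rpl7 counts in AL and CR, a call that held in 9 of 17 alternatives. Rpl22l1, Rpl36al and Rps27l did not pass in either genotype. Over all 8 paralogues 2 fell and 2 rose in BMAd-Pnpla2+/+, where 10.9% of all genes tested fell and 15.1% rose. In BMAd-Pnpla2-/- 1 of the 8 fell and 1 rose, against 5.57% and 6.04% of all genes.

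A few members varied more within groups than between them. Rps3a3 (chr13:108670603-108671397, plus strand), a processed pseudogene of Rps3a1, stood at 1.59, 54.2, 1.39 and 0.901 CPM in BMAd-Pnpla2+/+ AL, 56.6, 25, 1.16 and 37.5 CPM in BMAd-Pnpla2+/+ CR, 0.707, 0.579 and 0.476 CPM in BMAd-Pnpla2-/- AL, and 84.4, 0.736 and 0.735 CPM in their restricted counterparts. There were 5 libraries at 25 CPM or more, and 9 at 1.59 CPM or less. Its SD of log2 CPM within groups was 2.64, higher than for 99.95% of genes. The fitted log2 fold changes of 1.05 and 5.59 with CR did not pass in edgeR (edgeR adjusted p = 0.612 and 0.122). DESeq2 called Rps3a3 in BMAd-Pnpla2-/- under CR, where 1 library stood at 84.4 CPM and the others at 0.736 and 0.735 CPM.

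Rps3a2 (chr14:88123017-88123808, minus strand), another Rps3a1 pseudogene, stood at 3.06 CPM in BMAd-Pnpla2+/+ AL replicate 2, at 2.75, 1.6 and 2.53 CPM in BMAd-Pnpla2+/+ CR replicates 1, 2 and 4 and at 8.59 CPM in BMAd-Pnpla2-/- CR replicate 1, the 5 libraries in which Rps3a3 was high, and from 0.686 to 1.96 CPM in the other 9. Rpl29, named after its values were seen, stood at 653, 51.5, 697 and 347 CPM in BMAd-Pnpla2+/+ AL, 379, 202, 354 and 314 CPM in BMAd-Pnpla2+/+ CR, 381, 458 and 240 CPM in BMAd-Pnpla2-/- AL, and 213, 333 and 358 CPM in their restricted counterparts. A single AL library was far below the rest, and it was the AL library in which Rps3a3 was high. The log2 fold change of Rpl29 with CR in BMAd-Pnpla2+/+ was -0.49 ± 0.534 (edgeR adjusted p = 0.518).

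**Figure D5:**
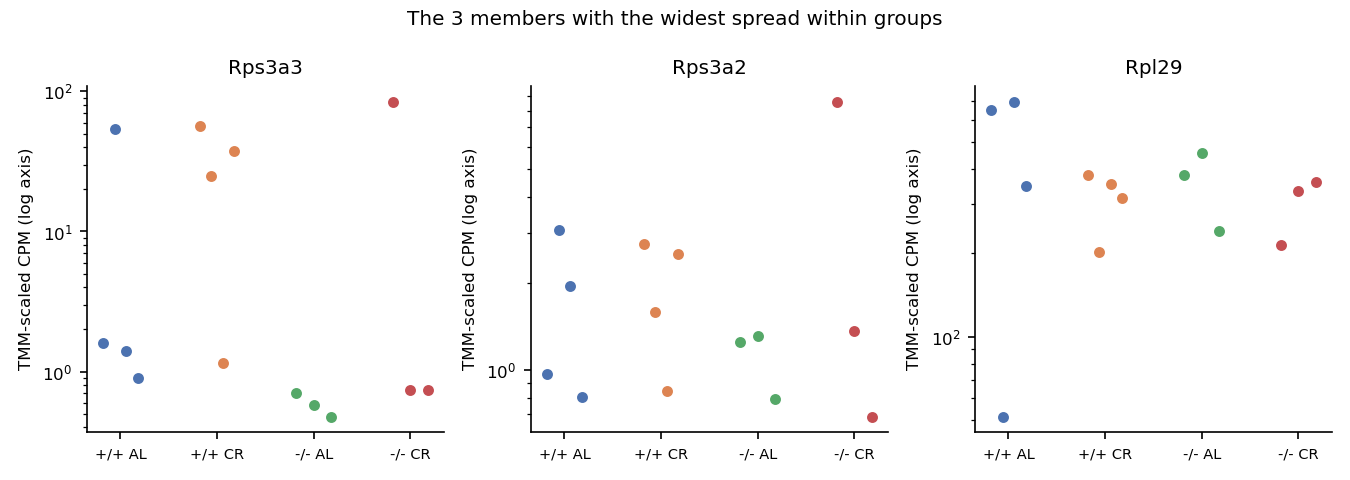
TMM-scaled CPM of Rps3a3, Rps3a2 and Rpl29 in each library on a log axis, by group. Points are libraries: Rps3a3 is at 25 to 84.4 CPM in 5 libraries and at 0.476 to 1.59 CPM in 9, and Rpl29 is at 51.5 CPM in 1 BMAd-Pnpla2+/+ AL library and at 202 to 697 CPM in the other 13.

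Genes that work with the ribosome were counted by lists. Elongation factors, which carry aminoacyl-tRNA and move the ribosome along mRNA, fell in 4 of 6 cases with none rising in BMAd-Pnpla2+/+ under CR (median -0.43), led by Eef1d (-0.61, edgeR adjusted p = 0.016) and Eef1g (-0.54, edgeR adjusted p = 0.015). In BMAd-Pnpla2-/- only Eef1g of the 6 passed (-0.55, edgeR adjusted p = 0.042; median of the list -0.25). Initiation factors fell in 7 of 30 cases with none rising (median -0.24) and in 3 of 30 (median -0.10). Factors of ribosome assembly fell in 6 of 45, including the box H/ACA proteins Nhp2 (-0.64, edgeR adjusted p = 0.013) and Gar1 (-0.52, edgeR adjusted p = 0.020), with a median of -0.24, while 0 fell and 1 rose in BMAd-Pnpla2-/- (median -0.15). Genes of RNA polymerase I, which transcribes rRNA, fell in 1 of 14 (median -0.16) and 0 of 14 (median -0.09).

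Regulators of the family were counted in the same way. Of 17 genes of mTORC1, Myc and TOP mRNA control, 2 fell and none rose in BMAd-Pnpla2+/+ (median 0.02), and none of the 17 passed in BMAd-Pnpla2-/- (median -0.04). Of 9 S6 kinase genes, 1 fell in BMAd-Pnpla2+/+ (median -0.11), and 2 fell and 1 rose in BMAd-Pnpla2-/- (median -0.21). Proteins of the mitochondrial ribosome, which are encoded in the nucleus but belong to another organelle, fell in 9 of 48 (large subunit, median -0.19) and 3 of 29 cases (small subunit, median -0.15, with 1 risen) in BMAd-Pnpla2+/+, and in 0 of 48 (median -0.16) and 3 of 29 (median -0.14, with 1 risen) in BMAd-Pnpla2-/-. All counts are by edgeR over all genes, against the 10.9% and 5.57% of all genes that fell.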

How the data were processed

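RNA of 14 pooled bone marrow samples was sequenced as mRNA (paired 100-base reads) by a strand-specific protocol per the methods, which the counts show in 11 libraries. The authors checked reads with FastQC 0.11.9, aligned them to mm10 with STAR (version not given in the sources used here) and deposited raw counts per gene for each sample, with and without strand, and a matrix of counts. That matrix holds reverse-strand counts for 11 samples and unstranded counts for the 3 BMAd-Pnpla2-/- CR samples, so the unstranded counts of all 14 were used here. Reads aligning to more than 1 place were not counted by STAR.

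Genes passing filterByExpr (17671 of 55401) were scaled by TMM and fitted in 1 model of 4 groups with the robust quasi-likelihood test of edgeR 4.0.16, two-sided, with Benjamini-Hochberg adjustment over all genes tested. CPM values are TMM-scaled, and log2 CPM used a prior count of 2. DESeq2 1.42.0 was an alternative, beside other scalings (DESeq2 size factors, total counts alone), no filter, the deposited matrix, a replicate block and leaving out each replicate. The fit was tested on simulated data. R 4.3.3, Python 3.11.15, pandas 2.3.3 and matplotlib 3.10.9 were used. Counting error is covered only by the model, and p-values measure the spread between pools of mice. Coordinates are those of GENCODE M21 (GRCm38), and sequences those of RefSeq (GRCm38.p6).

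Members named are the 3 highest and 3 lowest log2 fold changes of each subunit in each comparison, the P stalk, 5S and paralogue genes and a few well-known proteins. Rpl31, Rps28, Rpl28, Rpl27a, Rpl29 and Rpl35 were, where they fall outside this rule, named after their values were seen. The choice of this gene family, the lists and the tests were made with earlier results of these data known. Some genes are not reported here.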

Additional observations from a re-analysis of the deposited data

Results flagged for a closer look

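Over 112 group tests, 102 of them on 51 named members and 10 on shares of reads and the ratio of the subunits, 5 samples stood far from the other 3 of their group by Dixon's criterion on the gap over the range, where chance gives about 1 in 20. Rps3a3 stood at 54.2 CPM in BMAd-Pnpla2+/+ AL replicate 2, against 0.901 to 1.59 CPM in the others. Rps14 stood at 411 CPM in BMAd-Pnpla2+/+ AL replicate 1, against 453 to 456 CPM, and Rpl22 at 136 CPM in the same library, against 150 to 153 CPM. Rpl38 stood at 137 CPM in BMAd-Pnpla2+/+ AL replicate 3, against 128 to 129 CPM. Rpl7l1 stood at 53.1 CPM in BMAd-Pnpla2+/+ CR replicate 1, against 44.0 to 45.0 CPM.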

How the results depend on the processing

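Depth limits the members under 100 counts, Rpl3l and Rpl39l among them, and the library kind of BMAd-Pnpla2-/- CR cannot be told apart from the group. In BMAd-Pnpla2+/+ under CR, the large and small subunit calls (16 and 12) became 10 and 4 when only the 2 groups were fitted, and ranged from 7 to 19 and from 3 to 18 without single replicates. The low values came without CR replicate 2 (9 and 3) or 3 (7 and 3) and, for the small subunit, without AL replicates 2, 3 or 4 (5, 5 and 7). The medians kept their sign in all these fits, from -0.35 to -0.16 and from -0.37 to -0.17. In BMAd-Pnpla2-/- under CR (8 and 3 calls), DESeq2 gave 13 and 12. The small subunit count was 6 with DESeq2 size factors, 9 without the filter, 7 with the deposited matrix and 7 with only the 2 groups. Leaving out replicates gave 0 to 6 and 0 to 5, lowest without AL replicate 1 (1 and 0) or CR replicate 3 (0 and 0), with medians from -0.32 to -0.15 and from -0.21 to -0.03.

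Between genotypes fed AL, DESeq2 called 1 small subunit member, and every fit without 1 replicate called 0, with a small subunit median from -0.178 to -0.0175. Between genotypes under CR, the large subunit calls were 6 with DESeq2, 1 without the filter and 4 with the deposited matrix, the small subunit calls 3 with DESeq2 and 2 with the deposited matrix, and leaving out replicates gave 0 to 2 and 0 to 1, with medians on both sides of 0, from -0.11 to 0.05 and from -0.06 to 0.09. The interaction gave 1 call with DESeq2 (Rpl15) and 6 with the deposited matrix (Rpl15, Rpl23a, Rpl30, Rpl35 and Rps28 among them), in which the strand setting differs between the groups. Without haemoglobin reads, the share of gene reads was 3.44% and 2.98% in BMAd-Pnpla2+/+ AL and CR and 3.26% and 2.90% in BMAd-Pnpla2-/-, in that order. The causes were not tested.

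Equal replicate numbers did not pair samples: of 19 pairs, 7 had a correlation of deviations over 0.1, with a range from -0.376 to 0.326. With a replicate block, 16 large and 10 small subunit members passed in BMAd-Pnpla2+/+ under CR and 6 and 2 in BMAd-Pnpla2-/- under CR, and none between the genotypes. Among protein-coding members whose exons overlap no other gene, an alternative chosen after seeing the data, 13 fell and 1 rose in BMAd-Pnpla2+/+ and 2 fell and 1 rose in BMAd-Pnpla2-/-. No called member changed direction under any alternative.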
